A study of Mus musculus with 8 samples.

Results

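Chemokines and their receptors were examined in notochord-derived cells (NDCs) of the mouse at the start and at the end of the transformation of the notochord into the nucleus pulposus (NP). Members were taken by gene symbol (Ccl, Cxcl, Cx3cl1 and Xcl1 ligands, and Ccr, Cxcr, Cx3cr1, Xcr1 and Ackr receptors). The 2 genes whose symbol marks a pseudogene were left out. This gave 60 members among 43346 gene identifiers: 38 ligands, 18 receptors that signal and 4 atypical receptors. Of these, 21 had enough counts to be tested, 35 had counts but too few to be tested, and 4 had no count in any litter.

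Chemokines are small secreted proteins that direct the movement of cells, named for the spacing of the cysteines near their amino end (CC, CXC, CX3C, XC). They act through G protein-coupled receptors, whereas atypical receptors bind chemokines without G protein signalling and clear or redistribute them. Homeostatic chemokines are made constitutively in developing and resting tissues, and inflammatory chemokines are induced, largely through NF-κB and interferon signalling, and recruit neutrophils, monocytes and lymphocytes. The mature NP is an avascular tissue, and most of these receptors are known from leukocytes, which form outside it.

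RNA came from Shh-cre;ROSA:YFP mice, in which Cre made from the Shh locus switches on YFP in Shh-expressing notochord cells and in all of their descendants. There were 4 litters at embryonic day 12.5 (E12.5: NDP10.2, NPD3, NPD4 and NPD9.2) and 4 at postnatal day 0 (P0: NPD26, NPD27, NPD28 and NPD30), and the animals of a litter were pooled into a single sample. All litters came from this mouse model, the genotype of each pooled animal is not stated, and no treatment is described. E12.5 notochords were dissected whole and lysed without sorting, whereas P0 NP cells were freed mechanically and sorted for YFP, so stage and isolation method cannot be told apart in any difference below. Values are given per litter in the order in which the litters are named here, as counts scaled to a common number of reads on genes (CPM, the unit of edgeR) with trimmed-mean scaling unless stated otherwise.

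Between 4442775 and 7180221 reads fell on genes in the E12.5 litters and between 6371842 and 8904050 in the P0 litters. A count of 3, taken as the floor, corresponded to 0.353 to 0.738 CPM. The notochord markers T, Krt8, Krt18, Krt19 and Cd24a were at 37.9 CPM or more in every litter, Foxa2 was at 4.84 to 17.2 CPM at E12.5 and 1.59 to 9.70 at P0, Noto lay between 0 and 0.433 CPM in all 8 litters, and Shh went from 420 to 1348 CPM in the E12.5 litters down to 0.157 to 11.8 in the P0 litters. Markers of blood cells were also present. The summed CPM of 6 pan-leukocyte genes was 32.8 to 62.7 at E12.5 and 1627, 1955, 2134 and 185 in the P0 litters. All 6 genes were called higher at P0 (16.0% of all tested genes were). Cd52, with 13 reads at E12.5 against 1281 at P0, had enough counts to be tested only through P0 and had to come out higher.

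At P0, the inflammatory ligands Ccl3, Ccl6, Ccl9, Ccl24 and Cxcl2, the homeostatic ligands Cxcl12 and Cxcl16 and the receptors Ccr1, Ccr2, Cx3cr1, Cxcr2 and Cxcr4 had higher mRNA abundance than at E12.5. The ligands Cxcl14 and Cxcl13 and the atypical receptor Ackr3 had lower abundance. Of the 21 tested members, 15 were called at an adjusted p under 0.05 (edgeR), against 27.9% of all 15467 genes tested. Of the called members, 12 were higher at P0 (16.0% of all genes tested were called higher) and 3 were lower (12.0% of all genes). The median log2 fold change (P0 over E12.5) was 2.87 over the tested members and 0.036 over all tested genes. The filter kept a member that was high at a single stage, so a gene that passed it in this way had to differ, and these counts describe the members that passed and no others. All 4 P0 litters lay above all 4 E12.5 litters for 7 of the 21 (15.5% of all tested genes), and below them for 3 (14.4%).

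**Figure D1:**
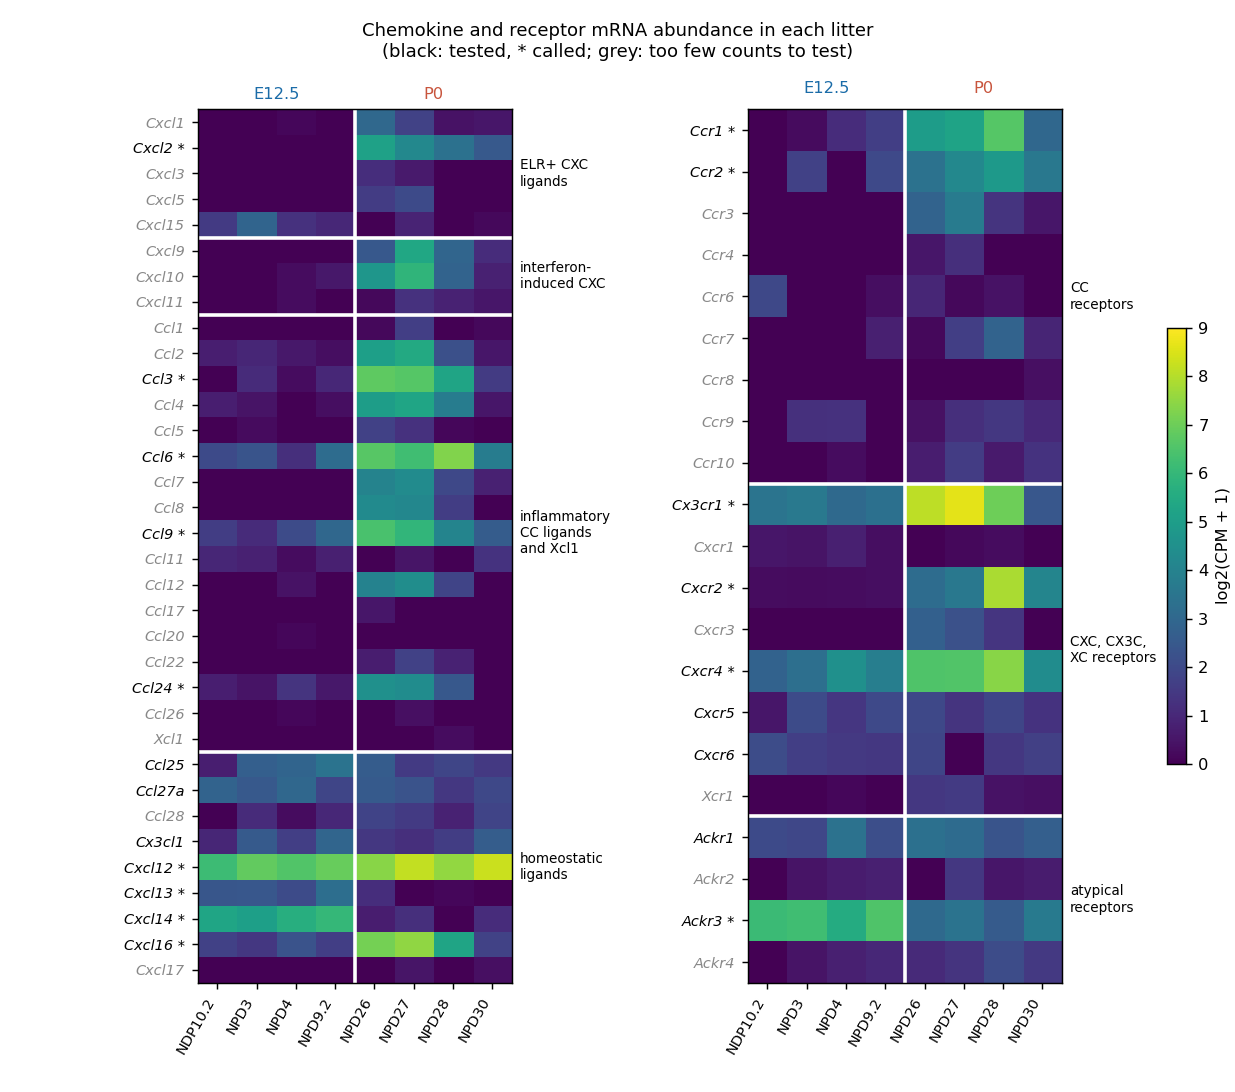
Abundance of 55 of the 56 members with a count, as log2(CPM + 1), in each litter (columns, E12.5 left and P0 right of the white line), grouped by role. Names in black were tested, names with an asterisk were called and names in grey had too few counts. Several inflammatory ligands and receptors are brighter in NPD26, NPD27 and NPD28 than in NPD30, while others are dim in every litter. Ccr2 and Cxcr2 are lowest among the P0 litters in NPD26. Cxcl14 and Ackr3 are bright in the E12.5 litters.

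The calls depended on the model and on 2 groups of litters. DESeq2 called 14 of the 21 (33.1% of all genes) and limma-voom 8 (26.3% of all genes), and with no filter on counts 21 of 56 members were called (15.2% of all genes), although Ccl9 (adjusted p = 0.0689), Ccl24 (adjusted p = 0.147), Ccr2 and Cx3cr1 were no longer called. Without NPD30, 24 of 31 members were called, 21 higher and 3 lower (28.1% of all genes). Without the E12.5 litters NDP10.2 and NPD9.2, where 16.3% and 17.5% of reads were ambiguous between genes, 6 of 40 were called (15.2% of all genes). Those 6 were Ackr3 and Cxcl14, both lower at P0, and Ccl3, Ccl6, Ccr1 and Cxcl2, all higher.

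**Figure D2:**
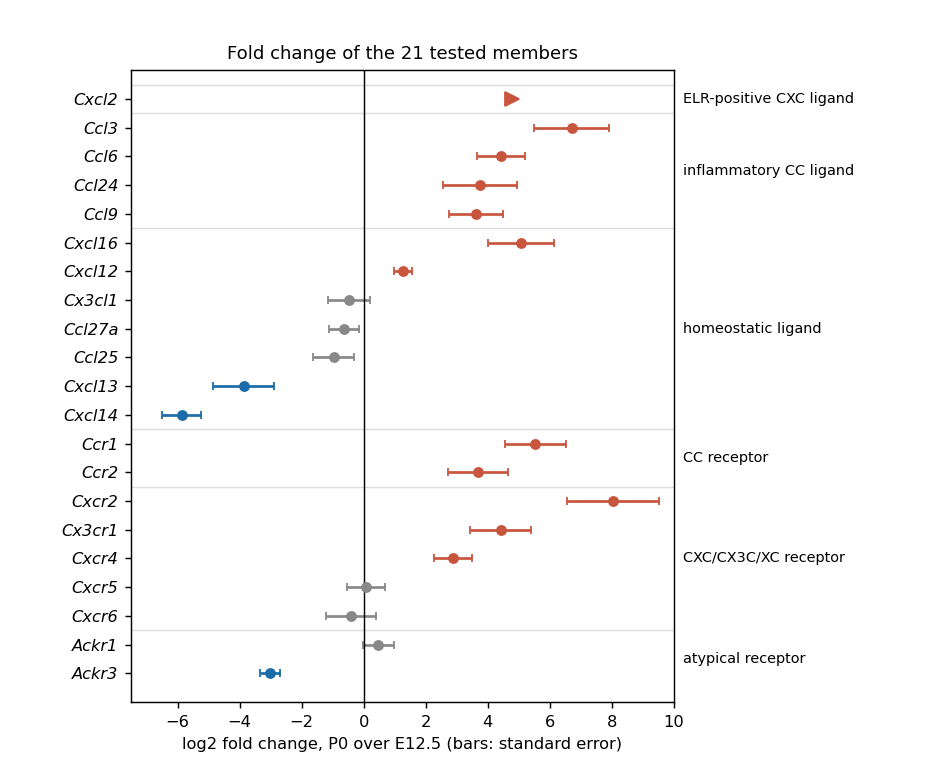
Log2 fold change of each tested member, P0 over E12.5, with its standard error, ordered by role. Red points were called higher, blue points lower and grey points were not called. The red triangle for Cxcl2 is the lower bound set by the floor, since this gene had no count in any E12.5 litter.

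The 4 P0 litters were unlike one another in the inflammatory members. NPD30 was the lowest P0 litter for 9 of the 12 members called higher (75%), and was the lowest for 1241 of all 2468 genes called higher (50.3%). The summed CPM of the 17 inflammatory CC ligands and Xcl1 was 8.26, 9.17, 7.62 and 18.0 at E12.5 and 432, 397, 240 and 23.2 at P0. The 9 monocyte and macrophage markers followed a similar order among the P0 litters, with sums of 74.3 to 187 at E12.5 and 6830, 7503, 3677 and 315 at P0, apart from NPD27 lying above NPD26. None of these 9 markers was at 0 in any litter, and all 9 were called higher at P0 (16.0% of all tested genes were). The part of macrophage RNA in the chemokine result was not tested, and in bulk samples more cells of a type cannot be told apart from more RNA per cell.

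**Figure D3:**
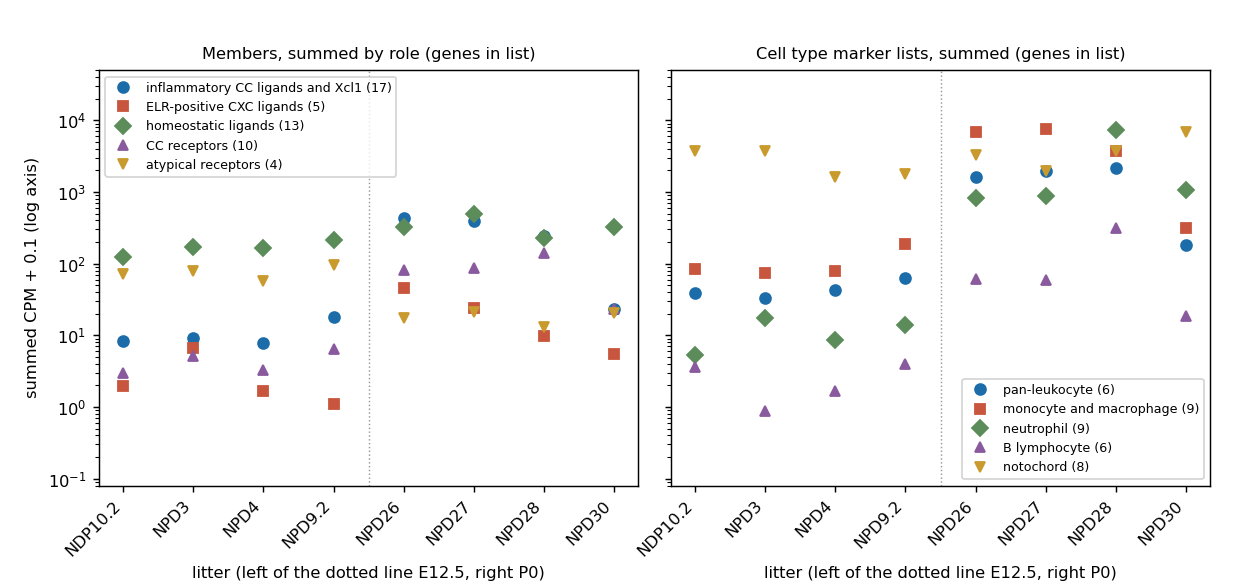
Summed CPM per litter on a log axis (0.1 added) for 5 groups of members (left) and for 5 marker lists (right), with the number of genes of each in parentheses. Inflammatory CC ligands, the pan-leukocyte list and the macrophage list are lowest among the P0 litters in NPD30, whereas the notochord list is highest there, at 6883 CPM.

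Among the inflammatory CC ligands, the 4 of 17 that passed the filter, mainly through their P0 counts, were called higher at P0 (16.0% of all tested genes were called higher). Ccl3 (MIP-1α), a ligand of Ccr1, was at 0, 1.17, 0.242 and 0.984 CPM at E12.5 and at 108, 98.3, 37.0 and 1.97 CPM at P0. Its P0 litters lay above all E12.5 litters, although NPD30 did so by less than 1 CPM. The log2 fold change was 6.70 ± 1.21 (SE, n = 4 per stage, adjusted p = 0.00314, edgeR). It was not called by limma-voom (adjusted p = 0.178). Per length of exon, Ccl3 had the highest mean level of the tested members at P0, at 141, 128, 48.3 and 2.57 RPKM (CPM per kilobase of exon) against at most 1.53 at E12.5.

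Ccl6 and Ccl9 are Ccr1 ligands that rodents have and that lie beside each other on chromosome 11. In the E12.5 litters Ccl6 stood at 3.07, 4.10, 1.33 and 8.11 CPM, and in the P0 litters at 100, 74.1, 158 and 12.7, without overlap (log2 fold change 4.42 ± 0.78, adjusted p = 0.00276). Ccl9 was at 2.12, 1.17, 3.14 and 7.13 CPM against 85.1, 59.8, 15.5 and 5.15 at P0. Here NPD30 fell inside the E12.5 range, with a log2 fold change of 3.62 ± 0.87 (adjusted p = 0.0117) that limma-voom did not call (adjusted p = 0.0958). Ccl24 (eotaxin-2), a ligand of the eosinophil receptor Ccr3, was at 0.708, 0.390, 1.57 and 0.492 CPM at E12.5 and at 21.9, 19.9, 4.59 and 0 at P0. It was called (log2 fold change 3.75 ± 1.18, adjusted p = 0.0393), but in only 2 of the 8 fits lacking 1 litter, and not by limma-voom (adjusted p = 0.518).

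The other 13 members of this group, all untested with the filter, had few reads at E12.5. The following were chosen after their values were seen. Ccl2 (MCP-1), the main ligand of Ccr2, had 3, 5, 4 and 1 reads at E12.5 and 210, 298, 30 and 3 at P0. Its neighbours on chromosome 11 Ccl7, Ccl12 and Ccl8, which are also monocyte attractants, gave the same picture. Ccl7 had no read at E12.5 and 96, 135, 24 and 5 at P0, at least 15.9-fold higher against a floor of 3 counts per library, and Ccl8 had no read at E12.5 and 119, 119, 18 and 0 at P0, also at least 15.9-fold higher. Ccl12 had 3 reads at E12.5, all in NPD4, and 95, 141, 22 and 0 at P0, a ratio of scaled counts of 65.8 with a 95% counting interval of 22.3 to 321. Ccl4 (MIP-1β), which attracts monocytes and T cells, had 3, 2, 0 and 1 reads against 198, 263, 109 and 3. In the fit without a filter, Ccl4 (adjusted p = 0.0415), Ccl7 (adjusted p = 0.00224) and Ccl22 (adjusted p = 0.0317) were called higher, and Ccl2 (adjusted p = 0.0763), Ccl8 (adjusted p = 0.201) and Ccl12 (adjusted p = 0.08) were not. That fit called 9.18% of all genes higher and 5.97% lower.

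Ccl5 (RANTES) had 1 read at E12.5 and 15, 10, 1 and 0 reads at P0, a ratio of 19.9 (95% counting interval 3.27 to 815). That interval leaves out the spread between litters, and the edgeR fit without a filter did not call Ccl5 (adjusted p = 0.1115). Ccl11 (eotaxin-1) had 13 reads at each stage, Ccl1 had 0 and 17 reads, 15 of them in NPD27, and Ccl17, Ccl20, Ccl26 and Xcl1 had at most 3 reads over the 4 litters of a stage. For these last 4 members the totals are at or below the floor, and no change was detectable at this depth.

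The ELR-positive CXC ligands attract neutrophils through Cxcr2, and the interferon-induced CXC ligands attract activated T and NK cells through Cxcr3. Cxcl2 (MIP-2) had no read in any E12.5 litter and stood at 34.9, 17.3, 9.30 and 4.70 CPM at P0. It was at least 27.7-fold higher at P0 (adjusted p = 0.0016) and was called whichever of the 8 litters was left out and in all 6 other settings. Without a read at E12.5, it passed the filter through its P0 counts alone and had to come out higher. These calls are therefore no test of its direction. Of the untested members of this group, Cxcl1 had 1 read at E12.5 and 46, 17, 3 and 3 at P0 (ratio 52.8, 95% counting interval 9.16 to 2114), Cxcl5 had none and 13, 21, 0 and 0 (at least 2.12-fold higher), and Cxcl3 had none and 8, 4, 0 and 0. Cxcl15 (lungkine), the remaining member, went the other way with 8, 33, 12 and 4 reads at E12.5 and 0, 6, 0 and 1 at P0, and was called lower without the filter (log2 fold change -3.35 ± 1.05, adjusted p = 0.0154). Cxcl2 and Cxcl3 share 69 stretches of 100 bases in their transcripts, and reads from these were not counted for either gene.

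None of the 3 interferon-induced ligands was tested with the filter. Cxcl9 had no read at E12.5 and 29, 280, 56 and 8 at P0, at least 22.0-fold higher. Cxcl10 had 0, 0, 2 and 2 reads against 161, 399, 54 and 5 at P0, and was called without the filter (log2 fold change 6.75 ± 1.66, adjusted p = 0.0406), whereas Cxcl9 was not (adjusted p = 0.113). Both were highest in NPD27. Cxcl11 had 2 reads at E12.5 and 21 at P0 and overlaps the gene Gm2673 over 41.7% of its exons, so its count is uncertain. It is annotated as a polymorphic pseudogene in Gencode M21 and was kept because its symbol does not mark one.

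The bases before the start sites were read from RefSeq (build GRCm38.p6) for the 44 members with a window in that table, and searched on both strands for GGG, any 3 bases and TTCC, a form of the NF-κB site, and for GAAA, any 2 bases and GAAA, a form of the interferon-stimulated response element. Within the 250 bases before the start, the first motif was found in 7 of 16 windows of ELR-positive, interferon-induced and inflammatory CC ligands (43.8%), in 0 of 10 of homeostatic ligands and in 1 of 18 of receptors, against 4.65% of all 32817 windows. The second was found in 1, 2 and 0 of these windows respectively, against 2.97% of all windows. A match is a run of letters and no evidence of binding. Cxcl1, Cxcl2 and Cxcl3, close neighbours that hold the same matching run, are among the 7. The windows of Ccl3, Ccl6 and Cxcl9, which had more reads at P0, held neither motif. Those of Ccl1 and Ccl20, which had few reads, held the first. The windows printed here were picked for their matches or lack of them and do not stand for their groups. The windows below are those of Cxcl2 and Cxcl1, which lie next to each other, of Cxcl10 and of Ccl9, each with at least 1 NF-κB-like match, and, for contrast, those of Cxcl12 and Cxcl14, the most abundant homeostatic ligands at E12.5, which have none. All are printed 5′ to 3′ on the strand of the gene, and capitals mark the matches to either motif.
Cxcl2 (chr5:90903649-90903898, plus strand): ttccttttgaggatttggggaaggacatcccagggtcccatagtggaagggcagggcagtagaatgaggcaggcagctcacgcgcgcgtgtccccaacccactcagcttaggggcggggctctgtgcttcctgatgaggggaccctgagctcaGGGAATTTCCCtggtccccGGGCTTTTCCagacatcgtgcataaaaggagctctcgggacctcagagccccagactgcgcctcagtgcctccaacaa
Cxcl1 (chr5:90890995-90891244, plus strand): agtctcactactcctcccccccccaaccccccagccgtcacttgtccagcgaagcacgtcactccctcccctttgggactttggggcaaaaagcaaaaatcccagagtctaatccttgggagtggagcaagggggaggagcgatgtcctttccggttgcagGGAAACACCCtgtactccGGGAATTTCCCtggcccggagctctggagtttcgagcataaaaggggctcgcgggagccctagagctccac
Cxcl10 (chr5:92348890-92349139, minus strand): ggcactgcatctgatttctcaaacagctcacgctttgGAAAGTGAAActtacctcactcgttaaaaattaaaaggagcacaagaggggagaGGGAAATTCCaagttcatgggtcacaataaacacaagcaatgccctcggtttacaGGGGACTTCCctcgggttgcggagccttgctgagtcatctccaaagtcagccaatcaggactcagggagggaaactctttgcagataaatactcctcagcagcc
Ccl9 (chr11:83578637-83578886, minus strand): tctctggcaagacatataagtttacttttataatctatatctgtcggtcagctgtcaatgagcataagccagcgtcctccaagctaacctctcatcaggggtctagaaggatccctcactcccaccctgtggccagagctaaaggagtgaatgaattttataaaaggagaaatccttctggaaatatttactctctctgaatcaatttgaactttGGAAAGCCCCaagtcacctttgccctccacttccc
Cxcl12 (chr6:117168285-117168534, plus strand): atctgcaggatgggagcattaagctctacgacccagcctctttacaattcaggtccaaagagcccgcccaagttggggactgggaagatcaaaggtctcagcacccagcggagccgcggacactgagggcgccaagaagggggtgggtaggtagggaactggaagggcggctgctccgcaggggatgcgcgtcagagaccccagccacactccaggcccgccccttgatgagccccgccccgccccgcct
Cxcl14 (chr13:56296552-56296801, minus strand): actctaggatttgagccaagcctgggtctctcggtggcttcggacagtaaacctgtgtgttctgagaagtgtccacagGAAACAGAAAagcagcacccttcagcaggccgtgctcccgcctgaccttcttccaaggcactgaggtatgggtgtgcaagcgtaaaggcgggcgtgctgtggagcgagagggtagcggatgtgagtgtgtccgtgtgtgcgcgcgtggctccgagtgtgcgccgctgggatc
In Cxcl2 and Cxcl1, 1 capital run reads as the first motif on both strands and so counts as 2 overlapping matches, and in each a separate match lies close by. Cxcl10 holds 2 matches to the first motif and, farther upstream, 1 to the second. The capitals in Cxcl14 mark a match to the second motif. CG dinucleotides numbered 14 in the Cxcl12 window and 16 in that of Cxcl14. There were 9 in the Cxcl2 window, 10 in that of Cxcl1, 5 in that of Cxcl10 and 2 in that of Ccl9. The median was 6 over all windows, and the 10 windows of homeostatic ligands ranged from 2 to 45.

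The homeostatic ligands carried the most abundant chemokine mRNAs at E12.5, and they moved in both directions. Cxcl12 (SDF-1; chr6:117168535-117181367), which retains hematopoietic progenitors in the marrow and guides many migrating cells of the embryo through Cxcr4, had the highest CPM of any ligand in all 4 E12.5 litters, at 71.7, 114, 93.1 and 118. At P0 it was at 170, 291, 184 and 313 CPM, above all E12.5 litters, with the smallest change of any called member (log2 fold change 1.27 ± 0.28, 2.41-fold, adjusted p = 0.0065). Unlike the inflammatory ligands it was highest in NPD30. The sum of 5 osteoblast markers was 2.21 to 4.95 CPM at E12.5 and 301, 474, 343 and 620 at P0, also highest in NPD30, and its part in the level of Cxcl12 was not tested. It made up 53.4, 61.4, 53.4 and 51.2% of all ligand CPM at E12.5 and 20.4, 29.0, 37.5 and 86.8% at P0. Without the E12.5 litters NDP10.2 and NPD9.2 it was not called (adjusted p = 0.067).

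Cxcl14 (chr13:56288643-56296551), a ligand of epithelia and developing tissues whose receptor is debated, was the member with the largest fall. It was at 37.7, 33.2, 48.7 and 62.5 CPM at E12.5 and at 0.629, 1.30, 0 and 1.21 at P0. No litters overlapped (log2 fold change -5.86 ± 0.63, adjusted p = 0.000236), and the call held in every alternative run. Per length of exon Cxcl14 had the highest mean level of the tested members at E12.5, at 20.7, 18.2, 26.7 and 34.2 RPKM, and the P0 litters had at most 0.71. The sclerotome markers, which belong to the mesenchyme around the notochord, also summed to a higher level in the E12.5 litters (142 to 189 CPM) than in the P0 litters (12.2 to 25.8 CPM). Its part in the level of Cxcl14 was not tested.

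Cxcl13, which draws B cells into follicles through Cxcr5, was low and fell as well. It stood at 4.25, 4.49, 3.14 and 8.61 CPM at E12.5 and at 1.26, 0, 0.118 and 0 at P0, again without overlap (log2 fold change -3.87 ± 0.98, adjusted p = 0.0131). Its receptor Cxcr5 was at 0.472, 3.12, 1.69 and 2.95 CPM at E12.5 and at 2.83, 1.59, 2.71 and 1.52 at P0. These ranges overlapped (log2 fold change 0.072 ± 0.61, adjusted p = 0.944), and the sign changed in some alternatives.

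Cxcl16, a membrane-bound ligand of Cxcr6 that also acts as a scavenger receptor on macrophages, behaved like the inflammatory ligands. It was at 2.36, 1.76, 3.99 and 2.21 CPM at E12.5 and at 139, 183, 36.8 and 2.43 at P0, so that 3 P0 litters lay far above the E12.5 range and NPD30 lay inside it. The log2 fold change was 5.08 ± 1.06 (adjusted p = 0.00592), and limma-voom did not call it (adjusted p = 0.195). Its exons overlap those of Zmynd15 over 18.3% of their length. Cxcr6, found on T and NK cells, was not called, with 3.30, 2.15, 1.81 and 1.72 CPM at E12.5 and 2.67, 0, 1.77 and 2.27 at P0 (log2 fold change -0.41 ± 0.80, adjusted p = 0.744).

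Cx3cl1 (fractalkine), a membrane-anchored ligand of neurons and epithelia, was at 0.944, 4.88, 2.18 and 6.64 CPM at E12.5 and at 1.73, 1.30, 2.12 and 5.31 at P0 and was not called (log2 fold change -0.47 ± 0.67, adjusted p = 0.644). The gut and thymus ligand Ccl25 and the skin ligand Ccl27a were not called either, with log2 fold changes of -0.96 ± 0.67 for Ccl25 (adjusted p = 0.314) and -0.64 ± 0.48 for Ccl27a (adjusted p = 0.357). Ccl28 had 12 and 53 reads at E12.5 and P0, and Cxcl17 had 0 and 5. The 4 members without a count, Ccl19, Ccl21a, Ccl21b and Ccl27b, are lymphoid and skin ligands with near-identical copies on chromosome 4. Of their stretches of 100 bases, 39.3%, 50.3%, 100% and 97.9% respectively occur in another gene, where single reads of 100 bases cannot be assigned. For Ccl21b and Ccl27b the zero therefore does not show that the genes were silent. The other stretches of Ccl19 and Ccl21a occur in no other transcript searched, and no read was counted from them in any litter.

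**Figure D4:**
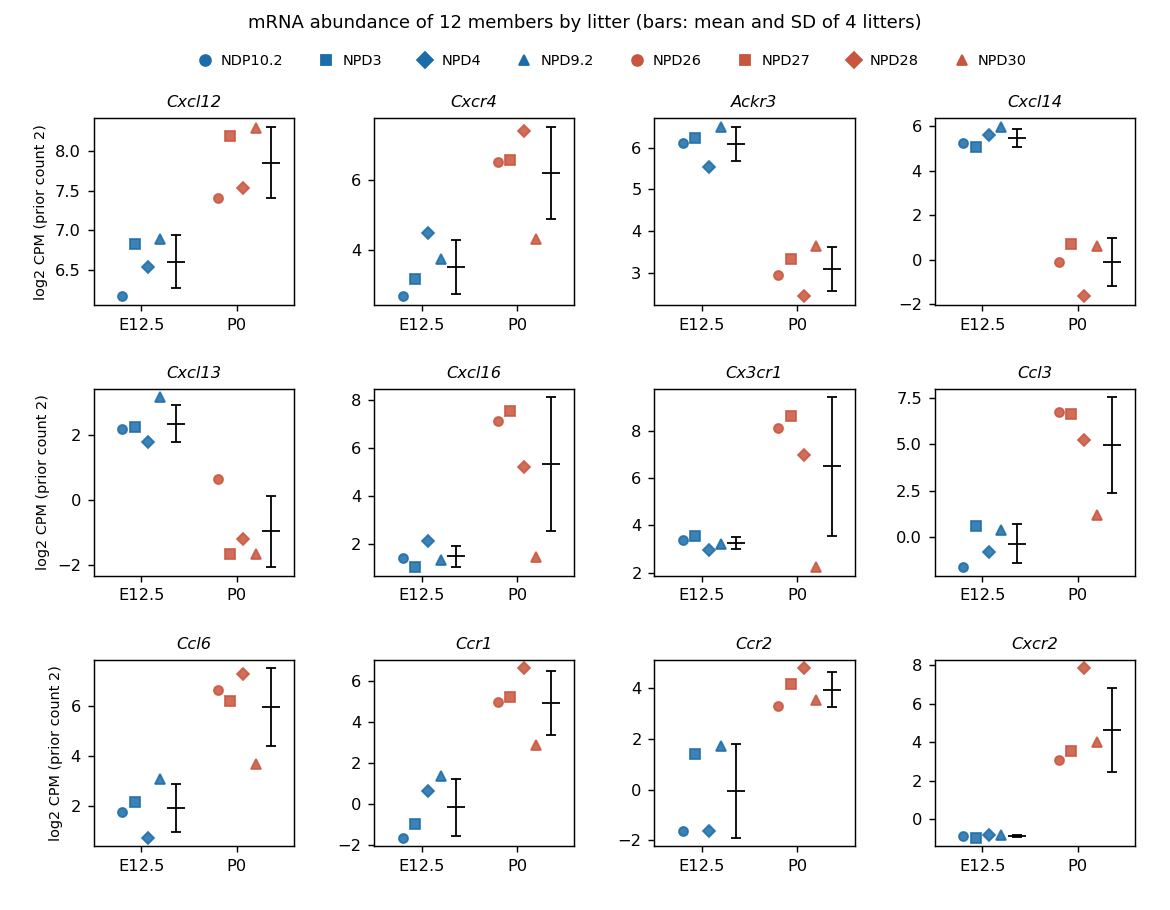
Log2 CPM (prior count 2) of 12 called members in each litter, with the mean and SD of the 4 litters of a stage in black. Each panel has its own vertical axis. Ackr3, Cxcl14 and Cxcl13 are lower in all P0 litters, and NPD30 (red triangle) lies within or below the E12.5 values for Cxcr4, Cxcl16 and Cx3cr1.

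Of the 18 receptors that signal, 7 were tested and 5 were called, all higher at P0 (16.0% of all tested genes were called higher). Among the called, Ccr1, Ccr2 and Cxcr2 had 20, 24 and 5 reads over the E12.5 litters. They passed the filter mainly through their P0 counts, so this count was in part set by the filter. Cxcr4 (chr1:128588199-128592293), the signalling receptor of Cxcl12 on hematopoietic, endothelial and germ cells, was at 6.13, 8.78, 22.1 and 13.3 CPM at E12.5 and at 90.6, 94.2, 167 and 19.6 at P0. NPD30 lay below NPD4, so the stages overlapped, with a log2 fold change of 2.87 ± 0.61 (adjusted p = 0.00664). Without the E12.5 litters NDP10.2 and NPD9.2 it was not called (adjusted p = 0.0762). At P0 its mean level per length, 51.3 RPKM, was below only that of Ccl3 among the tested members, and its litters stood at 50.1, 52.1, 92.3 and 10.8 RPKM.

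Cx3cr1, the fractalkine receptor that marks monocytes and tissue macrophages, showed the widest spread among the P0 litters. It was at 10.1, 11.3, 7.37 and 9.10 CPM at E12.5 and at 277, 399, 127 and 4.397 at P0. Thus 3 P0 litters lay at over 10 times the highest E12.5 litter and NPD30 lay below the lowest (log2 fold change 4.41 ± 0.98, adjusted p = 0.00815). Cx3cr1 was not called by limma-voom (adjusted p = 0.127) or without the filter (adjusted p = 0.0567).

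Ccr1 and Ccr2, receptors by which monocytes and neutrophils answer to CC ligands, did not overlap between the stages and were both called higher at P0. Ccr1 was at 0, 0.195, 1.21 and 2.21 CPM against 30.4, 36.5, 97.2 and 6.97 at P0 (log2 fold change 5.53 ± 0.98, adjusted p = 0.00281). Ccr2 was at 0, 2.34, 0 and 2.95 CPM against 9.44, 17.6, 27.3 and 11.2 (log2 fold change 3.70 ± 0.97, adjusted p = 0.0169). Both were highest in NPD28, and Ccr2 was not lowest in NPD30. Ccr1 was not called by limma-voom (adjusted p = 0.0519). Ccr2 was called by limma-voom but not without the filter (adjusted p = 0.0765).

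Cxcr2, the neutrophil receptor for the ELR-positive ligands, had 1, 1, 2 and 1 reads at E12.5 and stood at 8.18, 11.2, 228 and 15.9 CPM at P0. NPD28 alone carried the high value, and the neutrophil markers were also highest there, with sums of 819, 871, 7233 and 1055 CPM at P0 and 5.19 to 17.4 at E12.5. Of the 9 neutrophil markers, 8 could be tested and all 8 were called higher (16.0% of all tested genes were), and Elane was at 0 in all E12.5 litters. Retnlg, with 2 reads at E12.5 against 8059 at P0, and Ltf, with 20 against 8486, passed the filter through their P0 counts. So did Cxcr2 itself, with 5 against 2176. Such genes had to come out higher, so the direction of these calls was set by the filter. The log2 fold change of Cxcr2 was 8.05 ± 1.49 (adjusted p = 0.00347) and was 5.56 without NPD28, still called (adjusted p = 0.000296). DESeq2 gave no adjusted p for it, and limma-voom did not call it (adjusted p = 0.1). The part of neutrophil RNA in this result was not tested.

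The untested receptors, named here with their values seen, had fewer reads. Ccr3, the eosinophil receptor, had no read at E12.5 and 40, 86, 13 and 3 at P0 (at least 8.64-fold higher), and Cxcr3, the receptor of the interferon-induced ligands, had none against 37, 26, 14 and 0 (at least 4.69-fold higher). Ccr7, which brings dendritic cells and lymphocytes into lymphoid organs, had 3 reads at E12.5 and 1, 15, 53 and 6 at P0 (ratio 19.1, 95% counting interval 6.29 to 94.8). It was highest in NPD28, as the B lymphocyte markers were (318 CPM against 18.5 to 60.4 in the other P0 litters). NPD28 was also the highest P0 litter for the pan-leukocyte, neutrophil, T and NK cell and osteoclast sums, though not for the macrophage sum. The part of any of these cells in the Ccr7 count was not tested. Without the filter, Ccr3 (adjusted p = 5.26e-06), Ccr7 (adjusted p = 0.015) and Cxcr3 (adjusted p = 0.000262) were called higher. The 6 T and NK cell markers, too low to be tested, summed to at most 0.242 CPM at E12.5 and to 3.77 to 27.5 at P0, and the 4 mast cell and basophil markers to 0.121 to 6.39 and 4.25 to 14.9. The 4 osteoclast markers summed to 18.7 to 31.2 and 214 to 1204 CPM, and Mmp9 made up 1059 CPM of the highest sum, in NPD28. Xcr1, found on a class of dendritic cells, had 1 and 29 reads in the stages, Ccr10 had 2 and 33, and Ccr9 had 19 and 33. Ccr4, Ccr6, Ccr8 and Cxcr1 had at most 13 reads over the litters of a stage.

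The atypical receptors were led by Ackr3 (Cxcr7; chr1:90203980-90216751), which takes up Cxcl12 and thereby shapes its gradients in the embryo. Ackr3 was at 69.4, 74.3, 45.8 and 90.2 CPM at E12.5 and at 7.39, 9.81, 5.06 and 12.1 at P0. The stages were far apart and the litters of each were close together (69.9 ± 18.4 against 8.60 ± 3.05 CPM, SD, n = 4, 8.13-fold lower at P0). The log2 fold change was -3.02 ± 0.33, the call held in every alternative run (adjusted p = 0.000219, edgeR), and its level per length at E12.5 (mean 20.9 RPKM) was below only that of Cxcl14. The sum of 4 fibroblast and mesenchyme markers was also higher in the E12.5 litters (416 to 1083 CPM) than in the P0 litters (206 to 397), whereas that of 5 endothelial markers overlapped (58.5 to 122 against 19.4 to 92.3). Their part in the level of Ackr3 was not tested. Ackr1 (DARC), known from red cells and venules, was at 3.07, 2.73, 9.55 and 3.44 CPM at E12.5 and at 8.96, 7.93, 4.00 and 5.61 at P0 and was not called (log2 fold change 0.47 ± 0.50, adjusted p = 0.532). Its exons overlap those of Cadm3 over 25.7% of their length. Ackr2, a scavenger of inflammatory CC ligands, had 10 and 20 reads in the stages, and Ackr4, a scavenger of Ccl19, Ccl21 and Ccl25, had 12 and 58.

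Ligands and receptors that act together were also set against each other within each litter, for 8 pairs chosen after the values were seen. Exact p-values computed for these pairs are therefore not relied on, and none was under 0.05 after adjustment. The ratio is of CPM and not per length, so only its shift between stages is described. On the log2 scale, Cxcl12 over Ackr3 was at 0.048, 0.61, 1.02 and 0.39 at E12.5 and at 4.46, 4.85, 5.10 and 4.65 at P0. The stage means differed by 4.25, and NPD30 lay within the range of the other P0 litters. Cxcr4 over Ackr3, the signalling over the scavenging receptor, was at -3.43, -3.04, -1.04 and -2.74 at E12.5 and at 3.56, 3.22, 4.96 and 0.68 at P0, again without overlap. Cxcl12 over Cxcr4 overlapped between stages (E12.5 litters 2.06 to 3.65, P0 litters 0.14 to 3.98), with the highest ratio of all litters in NPD30.

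**Figure D5:**
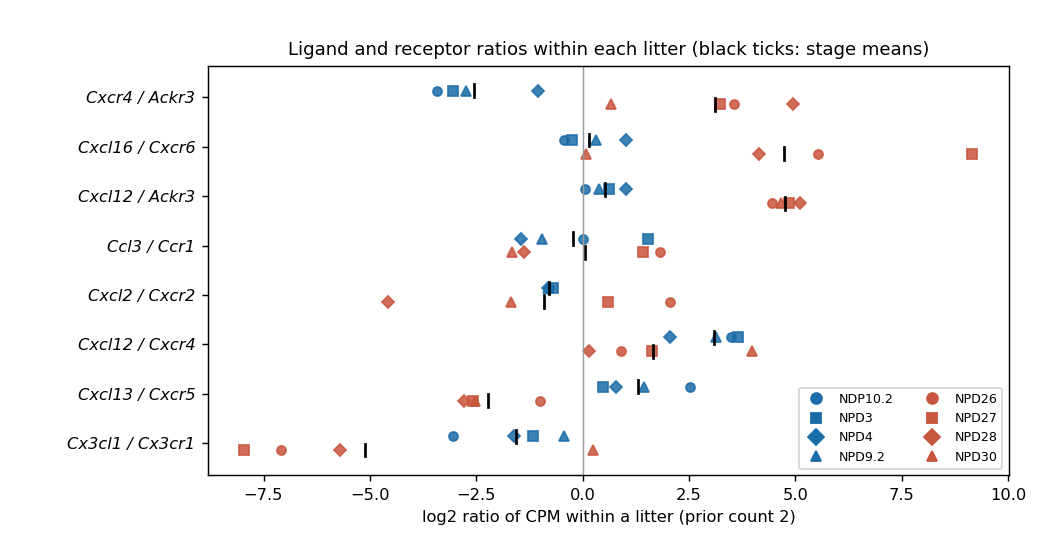
Log2 ratio of the CPM of 2 partner genes (prior count 2) in each litter, E12.5 in blue and P0 in red, with stage means as black ticks. Cxcl12 over Ackr3, Cxcr4 over Ackr3 and Cxcl13 over Cxcr5 do not overlap between stages, and the other 5 pairs do.

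By position, 14 of the members lie on chromosome 11, 13 on chromosome 9 and 11 on chromosome 5, in part within clusters of the family and in part far from them. Members next to each other did not always share a direction. On chromosome 5, Cxcl15 (chr5:90794534-90803067), with more reads at E12.5, lies between Cxcl3 (chr5:90786103-90789600) and Cxcl1 (chr5:90891241-90893115), whose reads came mainly from P0 litters. Cxcl13 (chr5:95956951-95961068), lower at P0, is on the same chromosome. Cxcl12, Cxcl14, Ackr3 and Cxcr4 lie outside the clusters of chemokine ligands.

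Other genes of the pathway were taken from a fixed list of 53 genes, of which 47 were tested. Of these, against 16.0% of all tested genes, 36 were called higher at P0 and 0 lower by edgeR, with 0 lower at an unadjusted p under 0.05 as well and 0 called lower by DESeq2 or limma-voom (called higher in 40 of 49 without NPD30, where 28.1% of all genes were called in either direction, and in 28 of 49 without NDP10.2 and NPD9.2, where 15.2% were). Among signal transducers and regulators, 18 of 27 were higher. As for the members, a gene that passed the filter through its P0 counts alone had to come out higher. Il1b, Tnf and Pik3r5, with 0, 6 and 8 reads over the E12.5 litters, are such genes, so these counts were in part set by the filter. Pik3r5, a subunit of the phosphoinositide kinase that chemokine receptors activate in leukocytes, was at 0, 0.585, 0 and 1.23 CPM at E12.5 and at 25.0, 39.9, 104 and 3.64 at P0 (log2 fold change 6.71 ± 1.21, adjusted p = 0.00307), and was not called by limma-voom (adjusted p = 0.0751). Cd74, the invariant chain and a receptor of the chemokine-like Mif, was at 0.944, 0.390, 0.121 and 1.97 CPM against 62.7, 73.8, 53.2 and 9.40 (log2 fold change 6.01 ± 0.83, adjusted p = 0.000866). For both genes the P0 litters lay above the E12.5 litters and NPD30 was the lowest of them.

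The list of genes that induce chemokines also held the NF-κB inhibitors Nfkbia and Tnfaip3. All 15 of its tested genes were called higher (16.0% of all tested genes were), so inducers and inhibitors are counted together. Il1b had no read at E12.5 and stood at 10.22, 12.7, 53.9 and 5.46 CPM at P0, at least 34.4-fold higher (adjusted p = 0.00342). Tnf was at 0, 0.195, 0 and 1.23 CPM against 13.2, 10.96, 12.8 and 2.27 (log2 fold change 4.93 ± 0.999, adjusted p = 0.00454). Nfkbia, the inhibitor that NF-κB itself induces, was at 41.8, 28.7, 21.3 and 31.7 CPM against 136, 132, 91.7 and 35.9, where NPD30 lay within the E12.5 range (log2 fold change 1.69 ± 0.39, adjusted p = 0.00899), and it was not called without NDP10.2 and NPD9.2 (adjusted p = 0.0521). Il6 was untested, with at most 1.44 CPM in any litter. Of the platelet chemokines, Pf4 was at 36.1, 12.9, 7.25 and 31.5 CPM against 198, 282, 39.0 and 14.9 (log2 fold change 2.62 ± 0.87, adjusted p = 0.0478) and was called in 2 of the 8 fits lacking a litter. Ppbp was at 17.7, 11.7, 6.41 and 18.4 CPM against 4.403, 28.0, 3.06 and 59.0 and was not called (log2 fold change 0.81 ± 0.82, adjusted p = 0.504). The megakaryocyte markers overlapped between the stages, with sums of 11.7 to 41.5 CPM in the E12.5 litters and 16.0 to 39.9 in the P0 litters.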

How the data were processed

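Bulk RNA of 8 pooled litters (4 per stage) was sequenced by the authors from TotalScript libraries (kit for low RNA input) as single-end reads. Per the labels, CASAVA 1.8.2 and STAR 2.4.0j were used, with alignment to GRCm38.p3. The deposited values are raw read counts per gene (htseq-count, Gencode M4). Whether counting used strand is not given in the sources used here, so reads of overlapping or antisense genes cannot be told apart. Of all tallied reads, 22.6 to 34.8% fell on genes, and the rows for ambiguous, multiply aligned and unassigned reads were left out. Reads aligned to more than 1 place were not counted, which removes near-identical copies.

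From these counts, genes were filtered with filterByExpr (minimum count 10, minimum total 15), scaled by the trimmed mean of M values and tested with the edgeR 4.0.16 quasi-likelihood F-test (robust, R 4.3.3) for P0 against E12.5 over all genes, with Benjamini-Hochberg adjustment and a threshold of 0.05 for a call. The standard error is the log2 fold change divided by the square root of F. Fold bounds set the stage without reads to 3 counts per library, and the ratios of scaled counts carry 95% exact intervals of counting error only. RPKM values divide by the union of exons in Gencode M21, a later annotation than that of the counts. Alternatives were DESeq2 1.42.0, limma-voom (limma 3.58.1), DESeq2 size factors, no filter, removal of hemoglobin and mitochondrial genes and leaving out each litter. Leaving out NDP10.2 and NPD9.2 together, and other scaling or prior counts for the pair ratios, were chosen after seeing the data. On simulated counts with the means of this comparison (15096 genes fitted), the test recovered 72.3% of 94 genes changed 4-fold and 13.4% of 97 changed 2-fold, with 4.71% of calls on unchanged genes.

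Litters do not pair across stages, so no block was used. Each member was placed as tested, counted but not tested, or without counts. Values per litter are given for called members, for tested partners of these, for tested atypical receptors and for the 2 members with the highest mean level per length at each stage. Of the pathway list, the 3 largest called changes and Pf4, Ppbp, Tnf, Il1b, Il6 and Nfkbia are given. The values of 1 member are not reported here. Marker lists are given as summed CPM. The members and all lists were chosen with earlier results of these data known.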

Additional observations from a re-analysis of the deposited data

Results flagged for a closer look

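Cxcr6 in the P0 litter NPD27 stood apart from its group. Its log2 CPM (prior count 2) was -1.65, from 0 reads, and the other 3 P0 litters lay between 1.06 and 1.58. The gap to the nearest litter was 0.839 of the whole range, above Dixon's 95% critical value for 4 samples. It was the only one among 42 groups of 4 litters examined (the tested members at each stage), where chance alone marks about 1 group in 20.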

How the results depend on the processing

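The count of 15 called members became 14 with DESeq2, 15 with DESeq2 size factors, 15 without hemoglobin and mitochondrial genes, 21 with no filter and 8 with limma-voom. Leaving out 1 litter gave 14 to 24, the highest without the P0 litter NPD30. Without the E12.5 litters NDP10.2 and NPD9.2 it was 6. All genes called ranged from 3612 to 4529 with 1 litter left out and numbered 2581 without those 2 litters, against 4321. The count of called pathway genes ranged from 32 to 40 with 1 litter left out. For all these changes the cause was not tested. No called member or called pathway gene changed direction in any alternative. Signs turned only for genes that were not called. With 1 litter left out, the log2 fold change of Cxcr5 ranged from -0.288 to 0.302 (negative values -0.288, -0.0269, -0.069 and -0.0515), of Cxcr6 from -0.708 to 0.00927, of Ppbp from -0.227 (without NPD30) to 1.187, of Gpr182 from -0.431 to 0.213 (negative values -0.431, -0.214 and -0.0145), of Gnai3 from -0.0718 to 0.265 (negative values -0.0718 and -0.0223) and of Mif from -0.341 to 0.0807 (positive values 0.0807 and 0.00837). Without NDP10.2 and NPD9.2, Cxcr5 reached -0.179, Gnai3 -0.269, Grk5 -0.324 and Mif 0.036, and with limma-voom Gpr182 reached -0.0573. The Cxcl2 over Cxcr2 shift, -0.12 with a prior count of 2, was 1.04 with a prior count of 0.5. Few reads limit the comparison for the 35 members counted below the filter. No paired analysis was possible because the litter names do not pair the stages and replicate numbers follow the order of the samples.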
